A study of Homo sapiens with 2 samples.

Results

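Cardiomyocytes with at least 3 TBX18 transcripts were compared with cardiomyocytes in which no TBX18 transcript was counted, in 1 culture of HES2, a line of human embryonic stem cells, differentiated to SANLPC, sinoatrial node-like pacemaker cells. Each cell gave RNA counts and counts of the barcode carried by an anti-CD34 antibody (CITE-seq), after a droplet library of live, sorted single cells. The TBX18-positive and the TBX18-negative cells share the line, the differentiation, the dissociation, the antibody stain and the sort, and no treatment, genotype or time separates them. The labels give no further marker, reporter or selection. There is 1 culture and no replicate, so no test was made and the intervals below are 95% intervals that cover counting error only.

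The members were chosen by measured values. A cell had to hold at least 1000 detected genes, at most 25% mitochondrial counts and between 8000 and 30000 unique molecular identifiers (UMIs, counted RNA molecules). It also needed TNNT2, cardiac troponin T, at 2000 CPM (UMIs of a gene scaled to a common total) or more, at most 4 UMIs in sum over VTCN1, GATA3, CLDN4 and WNT6, and 0 UMIs of NKX2-5, the cardiac factor that the sinus node largely lacks. These limits left 3698 of 14829 barcodes. Of these, 933 had 3 or more TBX18 UMIs and are called TBX18-positive, 946 had 0 and are called TBX18-negative, and 1819 had 1 or 2 and entered neither side. The TBX18-positive cells held 17546739 UMIs in sum and the TBX18-negative cells 14368449.

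TBX18 is a T-box transcription factor. In the mouse it marks the progenitors that build the head of the sinus node and is needed for that part to form, while SHOX2, TBX3 and ISL1 are the other regulators by which node cells are kept apart from working atrial muscle. Node cells fire by themselves through the HCN channels, which carry the pacemaker current, together with calcium channels and calcium release from the sarcoplasmic reticulum. TBX18 is also active in the epicardium and in mesenchymal cells derived from it.

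T-box factors bind a short sequence, and the region around each start of transcription (250 bases before to 50 after) is shown for TBX18, which chose the cells, and for GFRA1 and VWDE, picked after their values were seen because, among genes with no near-identical copy in the 15 highest ratios, theirs were highest at equal depth. The sequences are RefSeq's, build GRCh38.p14, minus strand, at chr6:84764549-84764848, chr10:116274656-116274955 and chr7:12403816-12404115. Capitals mark the T-box core GGTGTG.
TBX18: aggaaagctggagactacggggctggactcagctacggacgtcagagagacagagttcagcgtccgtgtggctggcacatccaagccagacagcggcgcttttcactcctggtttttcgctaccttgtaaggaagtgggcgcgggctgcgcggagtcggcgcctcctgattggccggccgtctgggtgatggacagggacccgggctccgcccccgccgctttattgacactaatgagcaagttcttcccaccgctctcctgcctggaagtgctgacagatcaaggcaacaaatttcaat
GFRA1: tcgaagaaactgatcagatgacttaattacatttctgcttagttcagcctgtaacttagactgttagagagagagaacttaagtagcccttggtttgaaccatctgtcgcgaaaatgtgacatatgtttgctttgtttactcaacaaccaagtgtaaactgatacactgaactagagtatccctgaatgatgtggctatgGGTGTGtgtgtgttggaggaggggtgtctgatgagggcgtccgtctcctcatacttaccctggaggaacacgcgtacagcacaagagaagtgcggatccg
VWDE: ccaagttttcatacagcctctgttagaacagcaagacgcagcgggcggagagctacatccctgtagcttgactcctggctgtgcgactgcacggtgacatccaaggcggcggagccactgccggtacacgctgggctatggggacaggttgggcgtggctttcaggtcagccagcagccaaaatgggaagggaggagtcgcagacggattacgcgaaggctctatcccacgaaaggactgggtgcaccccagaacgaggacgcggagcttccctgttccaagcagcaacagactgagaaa

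The half-site AGGTGTGA, searched on both strands (TCACACCT on the other), was in none of these 3 windows. It was in 0 of 26 promoters of the genes past 1.5-fold higher in TBX18-positive cells and 0 of 25 of those past it lower, beside 0.775% of 5291 promoters of tested genes and 0.982% of 27305 promoters in the table. The core GGTGTG, which the half-site contains and which was searched on both strands too, was in 4 of 26 promoters of the higher genes and 2 of 25 of the lower genes, beside 14.4% of those of tested genes and 16.5% in the table. Of the 3 windows shown, that of GFRA1 held the core, 1 time, at the edge of a GT repeat.

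TBX18 counts were graded rather than split into clear groups. Over the 3698 cells they averaged 1.71 UMIs with a variance of 2.85, which is 1.67 times the mean. A single rate for all cells, applied to each cell's own depth, would put 20.1% of cells at 0 and 25.1% at 3 or more, and the cells showed 25.6% and 25.2%. At this depth a count of 0 does not show that a cell lacked TBX18. Just inside the limit, 447 cells had 3 UMIs, and just outside it, 715 had 2. Among the epithelial-type barcodes used as background (2820, at 10 or more UMIs of the 4 epithelial genes and TNNT2 under 500 CPM, median depth 18119 UMIs), 3.26% had a TBX18 UMI, against 74.4% of the 3698 cardiomyocytes at a median depth of 16331.5 UMIs.

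**Figure D1:**
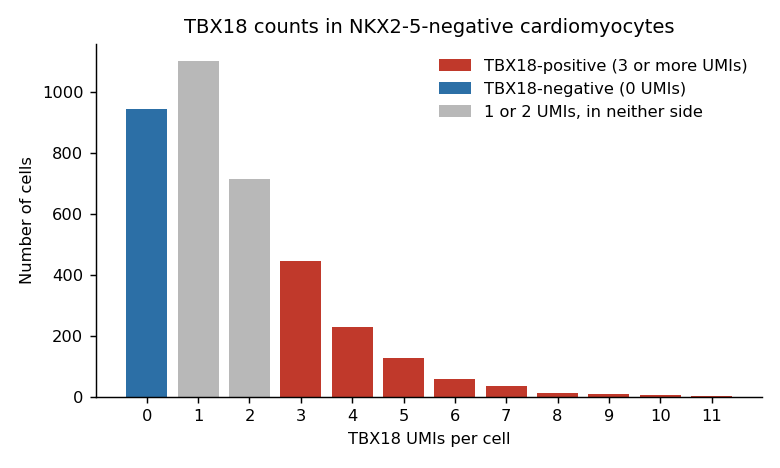
Number of NKX2-5-negative cardiomyocytes (y axis) by TBX18 UMIs per cell (x axis). Bars from 3 UMIs upwards are the TBX18-positive cells, the bar at 0 the TBX18-negative cells, and the bars at 1 and 2 the 1819 cells in neither side; the counts fall off smoothly from 1104 cells at 1 UMI.

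The sides differ in depth, and a higher count is easier to reach in a deeper cell. Whether anything else set the depths apart was not tested. The median was 18514 UMIs in TBX18-positive cells and 14590 in TBX18-negative cells, and median genes per cell were 4793 in TBX18-positive and 4130.5 in TBX18-negative cells. Ratios are therefore also given depth-weighted, with the TBX18-negative cells weighted to the depths of the TBX18-positive cells in steps of 2000 UMIs. Both sides were cardiomyocytes by markers that the rule did not use. MYH6, the atrial myosin heavy chain, stood at 8387 CPM in TBX18-positive cells and 6179 CPM in TBX18-negative cells, against 124 CPM in the epithelial-type barcodes, and MYL7, the atrial light chain, at 12003 CPM in TBX18-positive and 13251 CPM in TBX18-negative cells, against 230 CPM. None of 8 endothelial, 6 blood and 8 neural markers reached 5 CPM in either side, and PTPRC, which marks blood cells, was at 0 UMIs in both.

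Over 6486 genes at 20 CPM or more in the higher side, leaving out TBX18, the median log2 ratio of TBX18-positive over TBX18-negative cells was 0.03. The other genes of the rule were not left out. TNNT2 was among those tested, at 7117 CPM in TBX18-positive and 7184 CPM in TBX18-negative cells. In TBX18-positive cells 36 genes were higher by 1.5-fold or more (0.555%), and 43 were lower by as much (0.663%). With depth weights 6532 genes were measured, and 20 were higher (0.306%) and 72 lower (1.1%). The higher genes shared by both were 9, which is 25% of the unweighted and 45% of the weighted list, while 41 lower genes were shared, 95.3% and 56.9%.

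**Figure D2:**
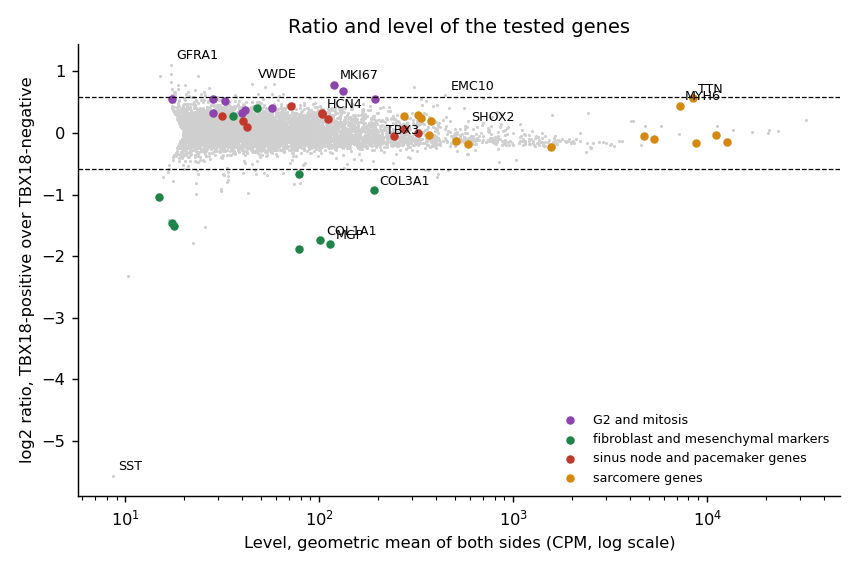
log2 ratio of summed CPM, TBX18-positive over TBX18-negative cells (y axis), against level (x axis, log scale) for each of 6486 tested genes. Coloured points are members of 4 lists and dashed lines mark 1.5-fold; pacemaker genes lie between the lines, mitotic genes reach above the upper line, and fibroblast genes lie mostly below the lower one.

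None of the 10 sinus node transcription factors was past 1.5-fold in either direction, and their median log2 ratio was 0.14 (0.18 depth-weighted). HAND2, a cardiac basic helix-loop-helix factor, stood at 192 CPM in TBX18-positive cells and 147 CPM in TBX18-negative cells, a ratio of 1.31 (1.24 to 1.38). TBX5, the T-box factor of atrial and conduction tissue, was at 176 CPM in TBX18-positive and 143 CPM in TBX18-negative cells, 1.23 (1.16 to 1.30). ISL1 was at 83.3 CPM in TBX18-positive and 69.5 CPM in TBX18-negative cells, 1.20 (1.10 to 1.30), and SHOX2 at 589 CPM in TBX18-positive and 545 CPM in TBX18-negative cells, 1.08 (1.05 to 1.11). HAND2, TBX5 and SHOX2 were above 1 in all 21 alternatives that keep the level limit and the fold, while the ratio of ISL1 was 0.987 among cells with 3 or more TBX3 UMIs.

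TBX3, a repressor of the working atrial programme, had no stable direction. It stood at 199 CPM in TBX18-positive cells and 214 CPM in TBX18-negative cells, a ratio of 0.929 (0.885 to 0.975), and depth-weighted the ratio was 1.05, with 8 of its 20 alternatives above 1. Its relative TBX2 was at 30.5 CPM in TBX18-positive and 39.3 CPM in TBX18-negative cells, 0.778 (0.690 to 0.877), and was below 1 in all 21 of these alternatives. Of 16 T-box genes listed beside TBX18, 11 stayed under 5 CPM in both sides. TBX3 was found in 53.4% of TBX18-positive cells and 52.6% of TBX18-negative cells after each cell had been thinned to 8000 UMIs (72.2% of TBX18-positive and 63.4% of TBX18-negative cells unthinned). It had a UMI in 65.6% of the epithelial-type barcodes, at a median depth of 18119 UMIs, which is below the unthinned share of the TBX18-positive cells and above that of the TBX18-negative cells; its level there was 83.7 CPM.

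The pacemaker genes showed small differences, mostly in 1 direction as summed. Of 12 genes, 10 passed the level limit and none of these was past 1.5-fold, with 9 above 1 and a median of 0.21 on the log2 scale (0.29 depth-weighted, all 10 above 1), beside 0.03 for all genes. Among all 6486 tested genes, 3571 were above 1 as summed and 3559 depth-weighted. HCN4, the main pacemaker channel, stood at 115 CPM in TBX18-positive cells and 92.1 CPM in TBX18-negative cells, 1.247 (1.16 to 1.34) and 1.32 depth-weighted. GJC1, connexin 45, was at 115 CPM in TBX18-positive and 93.0 CPM in TBX18-negative cells, 1.24 (1.16 to 1.33). CHRM2, the muscarinic receptor that slows the node, was at 136 CPM in TBX18-positive and 106 CPM in TBX18-negative cells, 1.28 (1.20 to 1.37), and the calcium channel CACNA1D at 120 CPM in TBX18-positive and 102 CPM in TBX18-negative cells, 1.18 (1.10 to 1.26). BMP4, VSNL1 and CPNE5, also enriched in node cells, had ratios of 0.968, 1.04 and 1.003.

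After thinning to 8000 UMIs, HCN4 was seen in 55.8% of TBX18-positive cells and 49.3% of TBX18-negative cells, with 80.6% of TBX18-positive and 65.5% of TBX18-negative cells unthinned and 6.38% of epithelial-type barcodes. HCN4 lay above the share in those barcodes in either side. Its ratio stayed above 1 in all 21 alternatives, between 1.16 and 1.36.

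Contractile genes split by member. All 15 sarcomere genes were measured, none was past 1.5-fold, 6 were above 1, and the median log2 ratio was -0.04 (0.01 depth-weighted). Among all 6486 tested genes, 3571 were above 1. TTN, the giant elastic protein, stood at 10291 CPM in TBX18-positive cells and 6935 CPM in TBX18-negative cells, 1.48 (1.47 to 1.496), and MYH6 at 8387 CPM in TBX18-positive and 6179 CPM in TBX18-negative cells, 1.36 (1.35 to 1.37). MYL7 was at 0.906, ACTC1, cardiac actin, at 0.895, and TNNI1, slow troponin I, at 0.859 of its TBX18-negative level. RYR2, the calcium release channel, was at 475 CPM in TBX18-positive and 345 CPM in TBX18-negative cells, 1.38 (1.33 to 1.43), and of 10 measured calcium handling genes 8 were above 1. Of the working myocardial list 4 of 14 genes were measured, with a median of -0.12 on the log2 scale (-0.01 depth-weighted, 2 of the 4 above 1), and NPPA, atrial natriuretic peptide, was at 339 CPM in TBX18-positive and 387 CPM in TBX18-negative cells, 0.877, but 1.02 depth-weighted. SLN, in this list and the calcium handling list, passed the level limit only depth-weighted and is in neither median. It was at 4.33 CPM in TBX18-positive and 41.5 CPM in depth-weighted TBX18-negative cells, 0.104. As summed SLN was at 17.9 CPM in TBX18-negative cells, from 257 UMIs, so the weighted ratio is the more extreme. It passed the limit only through the side where it is high.

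Ratios rose with gene length. Over 6297 genes with a length (97.1% of the tested genes), Spearman's correlation between genomic length and log2 ratio was 0.54 (0.51 depth-weighted), a description across genes that share 2 pools of cells. The median log2 ratio was -0.10, -0.02, 0.09 and 0.18 over 4 equal groups from the shortest to the longest genes. Of the genes above, CACNA1D, CHRM2, RYR2 and TTN are in the longest group, whereas HAND2, ISL1 and SHOX2 are in the shortest. Centred on genes of like length, the pacemaker list had a median of 0.07 and the sinus node factors 0.08. The nuclear RNAs MALAT1 and NEAT1 moved the same way, at 1.16 and 1.22 of the TBX18-negative level, and ribosomal protein genes together were at 0.913. The part of length or nuclear RNA in these ratios was not tested.

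**Figure D3:**
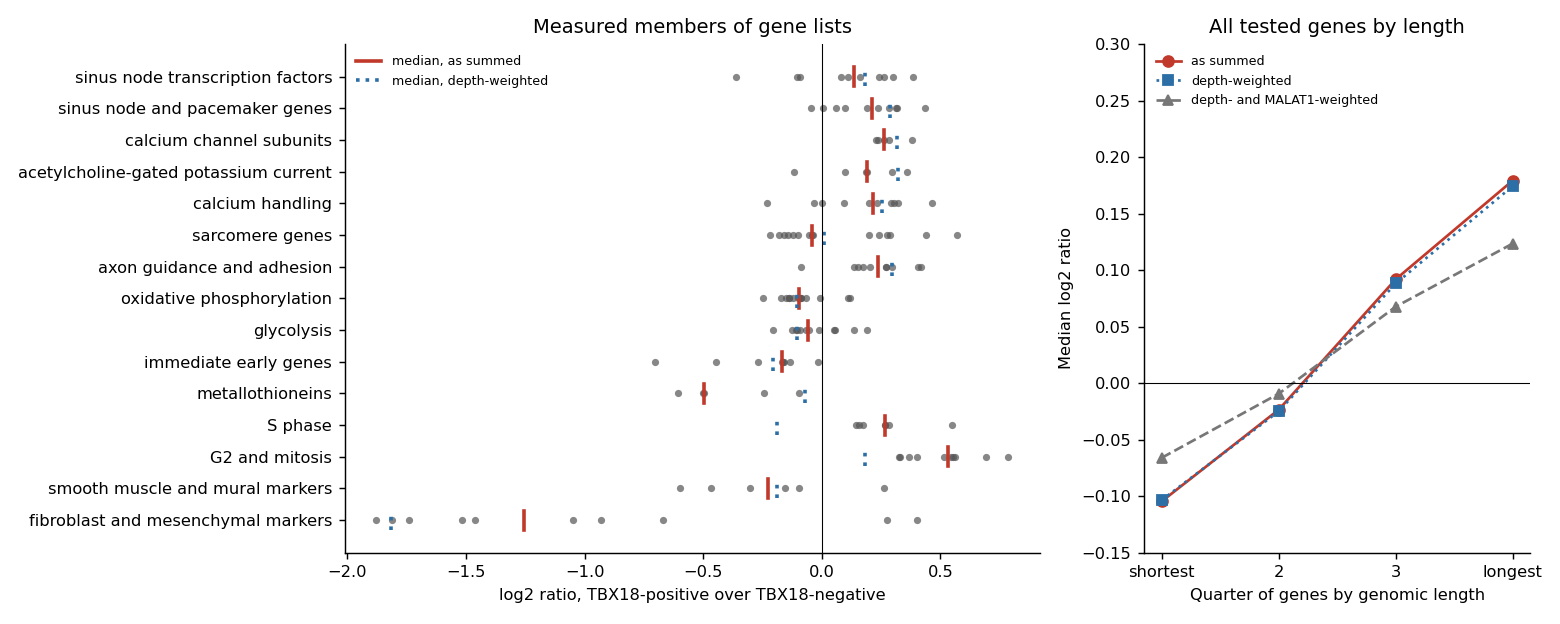
Left, log2 ratio of TBX18-positive over TBX18-negative cells (x axis) for each measured gene (point) of 15 lists, with list medians as solid red and depth-weighted medians as dotted blue strokes. Right, median log2 ratio (y axis) of all tested genes in 4 groups by genomic length, as summed and under 2 weightings; the medians climb from -0.10 to 0.18 as summed.

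GFRA1 and VWDE were high both as summed and at equal depth. Both were picked for their ratios in these same cells, and GFRA1 passed the level limit of 20 CPM only through TBX18-positive cells. GFRA1, a receptor of the growth factor GDNF, had 441 UMIs in TBX18-positive cells and 167 in TBX18-negative cells, or 25.1 CPM in TBX18-positive and 11.6 CPM in TBX18-negative cells, a ratio of 2.16 (1.81 to 2.60) and 2.06 depth-weighted. It was seen in 15.2% of TBX18-positive and 7.93% of TBX18-negative cells after thinning (26.2% of TBX18-positive and 13.4% of TBX18-negative cells unthinned), against 0.638% of epithelial-type barcodes. VWDE, a protein with von Willebrand factor D and EGF domains, was at 59.5 CPM in TBX18-positive and 34.1 CPM in TBX18-negative cells, 1.74 (1.57 to 1.95) and 1.74 depth-weighted. EMC10, a subunit of the endoplasmic reticulum membrane complex, was at 553 CPM in TBX18-positive and 361 CPM in TBX18-negative cells, 1.53 (1.48 to 1.59). FREM2, a basement membrane protein, was at 406 CPM in TBX18-positive and 277 CPM in TBX18-negative cells, 1.47 (1.41 to 1.52). EMC10 and FREM2 were picked after their values were seen. All 4 were above 1 in the 21 alternatives, GFRA1 between 1.79 and 2.67 and VWDE between 1.40 and 2.05. These alternatives draw on the same culture in which the genes were picked, so they are no separate support.

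A pair of the 15 genes named for the highest ratios are uncertain. POTEF had a ratio of 1.65 but is nearly identical to actin genes, and TTN-AS1, at 1.62, overlaps TTN on the other strand, where the use of strand in counting is not given in the sources used here. Both passed the level limit only through TBX18-positive cells.

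Levels were also taken over classes of 0, 1, 2, 3 to 4 and 5 or more TBX18 UMIs. The class at 0 is the TBX18-negative side, and the classes from 3 upwards make up the TBX18-positive side. GFRA1, VWDE, TTN, MYH6 and HAND2 were higher in each class than in the one before it. Their rise from 0 to the classes from 3 upwards restates the ratios given above. GFRA1 and VWDE were also picked for those ratios, so their order is no separate support. GFRA1 ran 11.6, 15.8, 21.7, 24.3 and 27.1 CPM and HAND2 147, 164, 173, 183 and 213 CPM. The climb was not particular to these genes. RYR2 ran 345, 387, 434, 446 and 542 CPM and GATA6 319, 328, 339, 349 and 373 CPM. How many of all tested genes climbed in this way was not counted. Median depth ran 14590, 15766.5, 17019, 17813 and 20089.5 UMIs over the same classes. With each class weighted to the depths of the TBX18-positive cells, GFRA1 ran 12.2, 14.6, 21.99, 23.9 and 26.3 CPM, VWDE 34.3, 47.0, 52.5, 55.9 and 69.3 CPM and HAND2 144, 159, 171, 183 and 212 CPM. TTN ran 7160, 7819, 8555, 9767 and 11512 CPM and HCN4 86.9, 95.2, 95.8, 111 and 125 CPM on that weighted scale, while HCN4 as summed ran 92.1, 99.8, 98.2, 112 and 123 CPM. ISL1 was lower again in the last class, at 66.0, 72.5, 82.3, 88.3 and 70.3 CPM weighted. TBX3 had no such order, at 190, 211, 179, 185 and 239 CPM weighted. MKI67 climbed from class to class as summed, at 90.9, 130, 131, 150 and 172 CPM, but not weighted, at 132, 163, 168, 162 and 153 CPM.

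**Figure D4:**
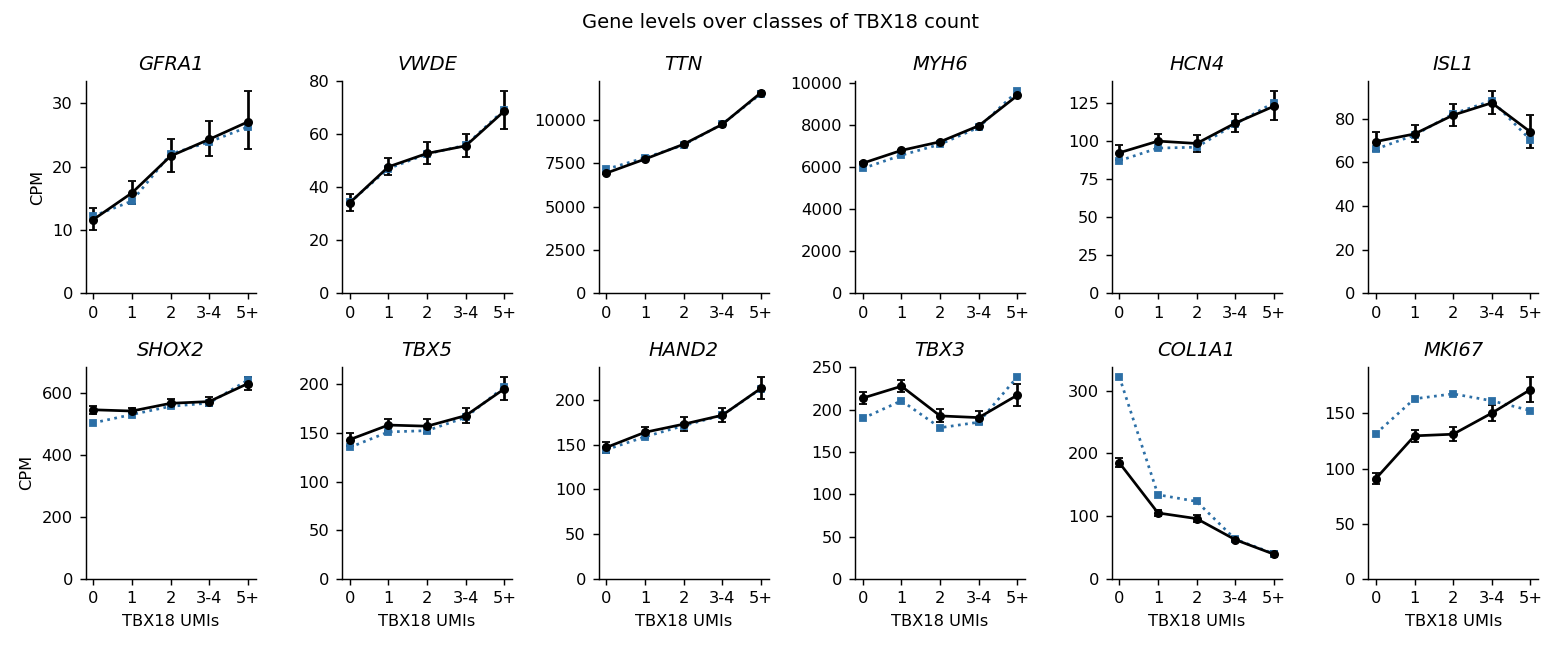
Summed level in CPM (y axes, from 0) of 12 genes in classes of TBX18 UMI count per cell (x axes), as summed (black, with exact 95% Poisson intervals for counting error) and weighted to equal depth (dotted blue). GFRA1, VWDE, TTN, MYH6 and HAND2 climb from class to class, as do RYR2 and GATA6, which are not shown. TBX3 does not, and COL1A1 runs from 185 CPM at 0 to 39.2 CPM at 5 or more.

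In the G2 and mitosis list all 10 genes were measured, 2 were past 1.5-fold (MKI67 and TOP2A), and the median log2 ratio was 0.53, 0.18 depth-weighted, 0.00 among cells of 12000 to 20000 UMIs and -0.20 among cells with 0 TBX3 UMIs. The S phase list gave 7 of 7 above 1 as summed, with a median of 0.27, but none above 1 and a median of -0.19 depth-weighted. Beside it, 3571 of all 6486 tested genes were above 1 as summed and 3559 depth-weighted. MKI67 stood at 157 CPM in TBX18-positive cells and 90.9 CPM in TBX18-negative cells, 1.72 (1.61 to 1.84), but 1.19 depth-weighted. Of the genes named for their rank, KIF14, KNL1, NCAPG, ASPM, MKI67, BUB1B, KIF11 and KIF2C, grouped here after their values were seen and each known from mitosis, lay between 1.65 and 1.94 as summed and between 1.12 and 1.58 depth-weighted. KIF14, KNL1, NCAPG, BUB1B and KIF2C passed the level limit only through TBX18-positive cells. Thinned to 8000 UMIs, 14.0% of TBX18-positive cells and 12.3% of TBX18-negative cells had 5 or more UMIs of the mitosis list (19.3% of TBX18-positive and 17.4% of TBX18-negative cells unthinned). The exact 95% intervals were 11.9% to 16.4% in TBX18-positive and 10.2% to 14.5% in TBX18-negative cells.

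Among the lower genes were collagens and other mesenchymal genes. Of 10 measured fibroblast genes, 8 were lower by 1.5-fold or more, beside 43 of all 6486 tested genes (0.663%). The list's median log2 ratio was -1.25 (-1.82 depth-weighted). PDGFRA and DDR2, at 1.32 and 1.21, were not lower. DCN, COL6A3 and POSTN passed the level limit only through TBX18-negative cells, so they could not have counted as higher, and they enter both the count and the median. COL1A1 stood at 55.5 CPM in TBX18-positive cells and 185 CPM in TBX18-negative cells, 0.2998 (0.278 to 0.323). MGP, matrix Gla protein, was at 60.8 CPM in TBX18-positive and 213 CPM in TBX18-negative cells, 0.285 (0.265 to 0.305), and COL3A1 at 138 CPM in TBX18-positive and 263 CPM in TBX18-negative cells, 0.525 (0.499 to 0.553). COL1A2, COL14A1, GPC3, DCN, COL6A3, DLK1, POSTN, COL9A3, IER3 and CRABP2 were lower as well. Of these, COL14A1, GPC3, DCN, COL6A3, DLK1, POSTN and COL9A3 passed the level limit only through TBX18-negative cells. The only measured gene of 12 epicardial markers, KRT19, was at 0.589, and WT1 and TCF21 stayed under 5 CPM in both sides.

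Part of these UMIs lay in few cells, to a degree that differed by gene. COL1A1 was seen in 24.1% of TBX18-positive cells and 26.7% of TBX18-negative cells after thinning (41.2% of TBX18-positive and 39.6% of TBX18-negative cells unthinned), and COL3A1 in 44.3% of TBX18-positive and 49.4% of TBX18-negative cells (67.5% of TBX18-positive and 65.4% of TBX18-negative cells unthinned). In the epithelial-type barcodes, at a median depth of 18119 UMIs, the shares were 65.0% for COL1A1 and 99.9% for COL3A1. The unthinned shares in both sides are below these. The epithelial-type barcodes were chosen as another kind of cell, so their shares do not give a noise level for these genes. The fewest cells that together held at least 50% of the COL1A1 UMIs were 42 of the TBX18-positive and 14 of the TBX18-negative cells, and for MGP 8 of the TBX18-positive and 11 of the TBX18-negative cells. With each gene's 20 top cells of each side left out, 21 genes were lower, the median log2 ratio of the fibroblast list was -0.77, and the ratio was 0.439 for COL1A1, 0.328 for COL1A2, 0.262 for MGP, 0.235 for COL14A1 and 0.588 for COL3A1, but 0.728 for C7 and 0.853 for DLK1. Cells with over 5000 CPM of the fibroblast list made up 8 of 933 TBX18-positive cells (0.857%, exact interval 0.371% to 1.68%) and 42 of 946 TBX18-negative cells (4.44%, 3.22% to 5.95%). Without them 15 genes were lower and 35 higher. Leaving out each cell with 5 or more fibroblast or epicardial UMIs, which left 267 TBX18-positive and 385 TBX18-negative cells, gave 16 lower and 59 higher genes. Both of these limits select on the same genes, so a smaller difference in them follows from the selection and says nothing of its origin. SST, somatostatin, had 22 UMIs in TBX18-positive cells and 854 in TBX18-negative cells, of which 1 cell held 436. Doublets called by Scrublet were 18 TBX18-positive cells (1.93%) and 41 TBX18-negative cells (4.33%). Without the called doublets 29 genes were lower and 40 higher, and the fibroblast list's median log2 ratio was -0.71. Among cells with 3 or more TBX3 UMIs this median was -0.36, and among cells with 0 TBX3 UMIs -1.29. With 3 or more TBX3 UMIs 18 genes were lower, of which 8 were among the 43 of the main comparison. The origin of the mesenchymal transcripts in these droplets was not tested.

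The remaining lists held few genes past 1.5-fold. Calcium channel subunits (5 of 8 measured) had a median log2 ratio of 0.26 and acetylcholine-gated current genes (6 of 8) 0.19, with none past the fold, and centred by length these were 0.07 and 0.05. Axon guidance and adhesion genes (10 of 16) had 0.24, led by SLIT2, a guidance ligand, at 171 CPM in TBX18-positive cells and 128 CPM in TBX18-negative cells, 1.33 (1.26 to 1.42), but 0.05 centred by length. Smooth muscle genes (6 of 10) had -0.23, with TAGLN past the fold at 0.660 and MYH11, smooth muscle myosin, at 1.20. In the extracellular matrix list (8 of 16) POSTN was past the fold, in the retinoic acid list (6 of 13) CRABP2, and in the epicardial list KRT19. Metallothioneins (5 of 7) had -0.49 as summed and -0.07 depth-weighted, with MT2A at 0.657 and 0.868. Interferon-inducible genes (3 of 10) had BST2 past the fold at 0.639, and immediate early genes (8 of 10), which respond to dissociation, ATF3 at 0.614.

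No gene was past the fold in the BMP (11 of 12 measured), WNT (5 of 12), NOTCH (3 of 11), TGF-beta (2 of 9), FGF and hedgehog (5 of 12), homeobox (1 of 12), ventricular (3 of 8), repolarizing channel (3 of 12), integrated stress response (3 of 10) or epithelial (1 of 10) lists. ID1, a target of BMP signalling, stood at 254 CPM in TBX18-positive cells and 338 CPM in TBX18-negative cells, 0.750. Oxidative phosphorylation (14 of 14) and glycolysis (12 of 13) had medians of -0.10 and -0.06 on the log2 scale, and centred by length these were 0.00 and -0.07.

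The CD34 antibody tag, which the rule did not use, was higher in TBX18-positive cells. Its median was 123 tag UMIs (quartiles 51 and 427) in TBX18-positive cells and 91 (quartiles 49 and 260) in TBX18-negative cells, a ratio of 1.35. Above 162 tag UMIs, the 99th percentile of the epithelial-type barcodes, lay 44.4% (41.2% to 47.6%) of TBX18-positive cells and 34.6% (31.5% to 37.7%) of TBX18-negative cells. The ratio was 1.32 depth-weighted, 1.78 with TBX18 at 5 or more UMIs and 1.04 per 10000 RNA UMIs. Among cells with 0 TBX3 UMIs it was 0.926, and among cells with 3 or more 1.33. CD34 RNA gave 159 UMIs in TBX18-positive cells and 100 in TBX18-negative cells, a ratio of 1.30 (1.01 to 1.69). At 9.06 CPM in TBX18-positive and 6.96 CPM in TBX18-negative cells it is below the level limit of 20 CPM. Its ratio was 0.925 after thinning, 0.188 in cells with the tag below its median and 2.70 among cells with 0 TBX3 UMIs, where the tag ratio was below 1, and above 1 in 19 of 21 alternatives.

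**Figure D5:**
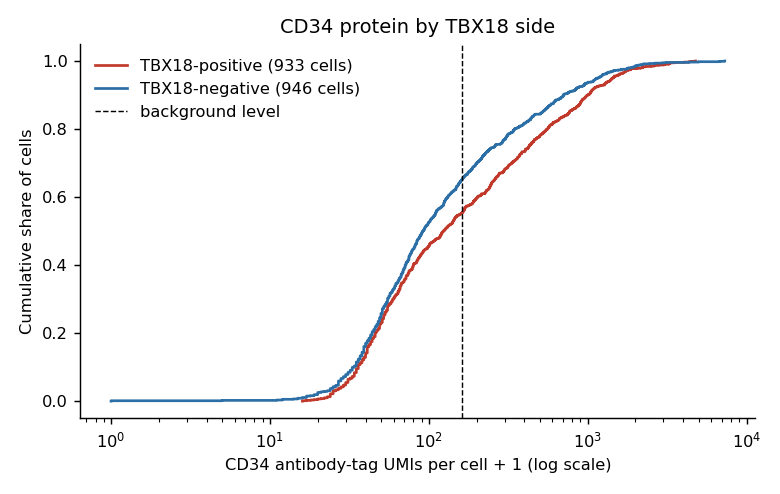
Cumulative share of cells (y axis) by CD34 antibody-tag UMIs per cell plus 1 (x axis, log scale) for 933 TBX18-positive and 946 TBX18-negative cells, with the level of 162 UMIs dashed. The TBX18-positive curve lies to the right at the median and at the upper quartile, and the ranges of both sides overlap.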

How the data were processed

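The deposited matrix held whole-number UMI counts for 36601 genes and 1 antibody tag in 14829 barcodes. Per the submitters' processing notes, the authors made these counts with Cell Ranger 6.1.2 on GRCh38, and no normalization or cell annotation is recorded in the sources used here. Within each side a gene's counts were added up over cells and scaled to CPM, with exact binomial intervals for the ratio. A gene was measured at 20 CPM or more in the higher side, and read as past the fold at 1.5 or its inverse. Near this level a gene can therefore enter only through the side where it is high. The sums held 17546739 UMIs in TBX18-positive and 14368449 in TBX18-negative cells, so intervals are narrow and say nothing of other cultures. Genes named are the 15 highest and 15 lowest ratios, members of 36 lists and a few picked after their values were seen. The genes of the rule, mitochondrially encoded genes and ribosomal protein genes were left out before these 15 were taken at each end. Of those left out, MT-ND6 was at 401 CPM in TBX18-positive cells and 250 CPM in depth-weighted TBX18-negative cells, a ratio of 1.60. The 15 were ranked on summed ratios. As summed MT-ND6 had 7042 UMIs in TBX18-positive and 3417 in TBX18-negative cells, a higher ratio than the weighted one. The members and lists were chosen with earlier results of these data known. The level of 5000 CPM of fibroblast genes, the 5 mitosis UMIs, the epithelial-type definition, the tag level and 6 alternatives were set after seeing the data. Doublets were called with Scrublet in scanpy 1.11.5, 1435 of 12119 barcodes (11.8%), and kept in the main comparison. Other depths, thinning, TBX18, TBX3, tag and mitochondrial limits, levels and folds were tried as alternatives. Genomic lengths came from RefSeq. Python 3.11.15 with numpy 2.4.6, scipy 1.17.1 and pandas 2.3.3 was used, and the scripts were tested on simulated data.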

Additional observations from a re-analysis of the deposited data

How the results depend on the processing

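No paired analysis was possible because there is 1 culture and no replicate. Counts of higher and lower genes (36 and 43) depended on level and fold, at 11 and 20 with a level of 50 CPM, 161 and 144 at 5 CPM, 487 and 143 at a fold of 5 over 4, and 1 and 11 at 2-fold. They were 17 and 25 with TBX18 at 2 or more UMIs, 160 and 79 at 5 or more, and 18 higher at 150 CPM or more. Depth weights gave 20 and 72. A mitochondrial limit of 12% gave 103 and 67, TBX3 at 3 or more UMIs 85 and 18, and TBX3 at 0 UMIs 101 and 89. Leaving out cells with 5 or more fibroblast or epicardial UMIs gave 59 and 16. Cells with the tag at or above its median gave 88 higher, and no limit on NKX2-5 gave 67 lower. Of the alternatives chosen after seeing the data, leaving out each gene's 20 top cells gave 21 lower, depth and MALAT1 weights 17 and 69, depth weights without cycling cells 84 lower, and leaving out cells over 5000 CPM of fibroblast genes 15 lower. The tag ratio of 1.35 was 1.04 per 10000 RNA UMIs, 1.78 with TBX18 at 5 or more and 0.926 at 0 TBX3 UMIs. Ratios changed side for TOP2A (0.994 among 12000 to 20000 UMIs, 0.941 at 0 TBX3 UMIs), KIF14 (0.850 at 0 TBX3 UMIs, 0.962 with depth weights and no cycling cells), ASPM (0.816) and KIF2C (0.796) at 0 TBX3 UMIs, MGP (1.24) and DLK1 (1.01) at 3 or more TBX3 UMIs. Without cells holding 5 or more fibroblast or epicardial UMIs, C7 (1.36), MGP (1.35), GPC3 (1.57), DLK1 (1.28) and FN1 (1.18) changed side. Without cells over 5000 CPM of fibroblast genes, C7 (1.07) and DLK1 (1.57) did. The cause was not tested. Depth limits genes under 20 CPM as summed. They entered no main count of genes past the fold. They could enter counts at a level of 5 CPM, or where an alternative raised their level, as for SLN with depth weights. SLN and CD34 RNA (9.06 CPM in TBX18-positive and 6.96 CPM in TBX18-negative cells) were read as values.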
